A study of Homo sapiens with 25 samples.

Results

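The 6 human genes KMT2A, KMT2B, KMT2C, KMT2D, SETD1A and SETD1B encode the methyltransferases of histone H3 lysine 4 (H3K4), and the chromatin of these genes was examined in HCT116, an established colorectal carcinoma line. They were chosen by name from 19974 protein-coding genes of the RefSeq annotation on chromosomes 1 to 22 and X. A peak was counted for a gene when it overlapped the gene's span extended by 20 kb on each side, here called its window. FOXD2 cells carried the coding sequence of FOXD2, a forkhead transcription factor, in the vector pSin. Control cells carried the empty vector, and both lines were stable and selected with puromycin. A further set of cells received a plasmid, pcDNA3.1, for FOXD2 with 3xflag and 6xhis tags. Chromatin immunoprecipitation with sequencing gave 1 peak list per library. H3K4me1, H3K27ac and MLL4 each had 2 FOXD2 and 2 control lists, H3K4me3 had 1 list per group, and the tags had 2 lists for 6xHis and 2 for FLAG. The 7 input libraries of the 25 samples were not used here. FOXD2 came from a vector in all FOXD2 and tagged cells, and the labels do not say whether a line was a single clone or whether replicates were separate cultures.

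The methyltransferases work in large complexes that share the core proteins WDR5, RBBP5, ASH2L and DPY30, and they fall into pairs of paralogs. KMT2A and KMT2B (MLL1 and MLL2) act with menin at promoters and developmental genes. KMT2C and KMT2D (MLL3 and MLL4) act with the H3K27 demethylase KDM6A and place H3K4me1 at enhancers, and both are often mutated in cancers, colorectal cancer among them. SETD1A and SETD1B act with CXXC1 and WDR82 and place much of the H3K4me3 at active promoters. H3K4me3 marks active promoters, H3K4me1 marks enhancers and the flanks of promoters, and H3K27ac marks the active ones of both. Per the labels, the MLL4 antibody was directed at the KMT2D protein. MLL4 is also an older name of KMT2B, and the word below means the KMT2D protein.

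The lists differed in length. H3K4me1 lists held 114893 and 129887 peaks in FOXD2 cells, against 101204 and 95756 in control cells. H3K27ac lists held 85122 and 141008 peaks in FOXD2 cells, against 129995 and 85832 in control cells, so the longer list was replicate 2 of FOXD2 and replicate 1 of control. MLL4 lists held 22493 and 4676 peaks in FOXD2 cells, against 16046 and 13571 in control cells, and the list of FOXD2 replicate 2 stood apart as the short one. H3K4me3 lists held 22975 peaks in FOXD2 and 24528 in control cells, and the tag lists held 26942 to 48194. Read depth was not given in the sources used here, so a place without a peak shows only that none was listed. H3K4me3 lay in both lists over 10 of 12 markers of colorectal epithelium, with VIL1 and CDX1 lacking it. The same held for 2 of 6 blood markers, with PTPRC, CD3E, CD14 and CD79A lacking it. It also held for 5 of 8 fibroblast and endothelial markers and 2 of 5 neural markers, with COL1A2, COL3A1, DCN, NEUROD1, GFAP and SOX10 lacking it.

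KMT2C is the paralog of the antibody's own target. H3K4me1 peaks covered about 3.00 times as much of its window in FOXD2 as in control lists, and 1.68 times at KMT2A. Both passed the limma test, as 20.6% of all genes tested did in that direction, and KMT2A lost its call in 5 of 13 other settings. Each FOXD2 list exceeded each control list at both genes, and at 43.7% of all genes tested. At KMT2C and KMT2A, H3K27ac peaks also covered more in each FOXD2 list than in each control list, as at 29.6% of all genes tested. Neither gene passed the test in that mark (limma, adjusted p = 0.685 for each). KMT2D, KMT2B, SETD1A and SETD1B overlapped between the groups in both marks. The H3K4me3 peak at the start of each of the 5 genes whose start could be placed was present in both groups.

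**Figure D1:**
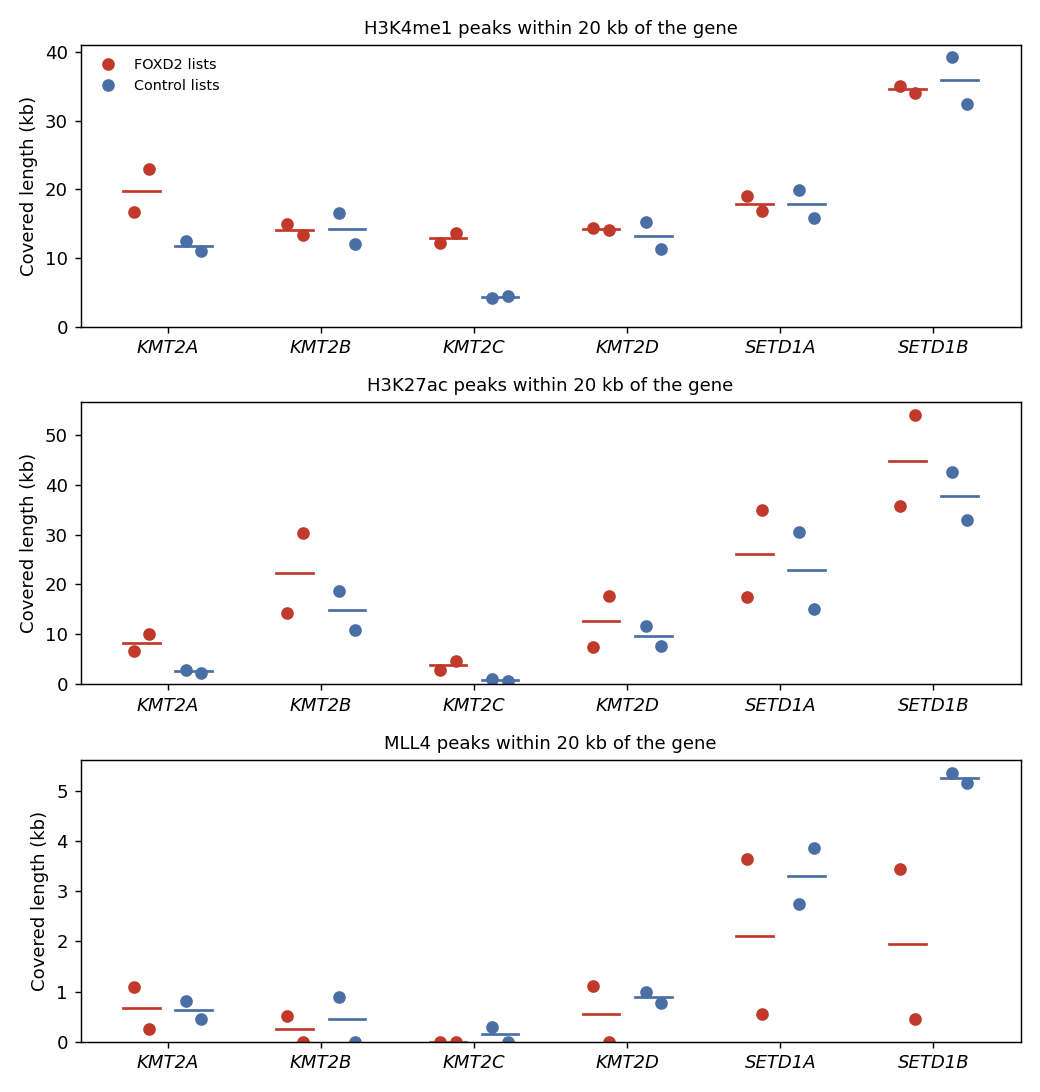
Length of each gene's window covered by peaks (kb, linear axis from 0) for H3K4me1, H3K27ac and MLL4. Each point is 1 list, FOXD2 lists in red on the left of each pair and control lists in blue on the right, with the mean as a line. KMT2A and KMT2C separate in the upper and middle panels, and SETD1B separates in the lower panel.

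KMT2C spans 301.1 kb of the minus strand at chr7:152134925-152436003 (hg38). Its H3K4me1 peaks numbered 15 and 22 in FOXD2 lists, against 7 and 6 in control lists. They covered 12.2 and 13.7 kb in FOXD2 lists, against 4.21 and 4.41 kb in control lists. Both FOXD2 lists lay well above both control lists, and replicates of a group differed little in covered length. Covered length averaged 12.9 ± 1.00 kb in FOXD2 cells and 4.31 ± 0.14 kb in control cells (SD, n = 2 each). In a limma fit over the 17237 genes tested, with covered length as log2(bp + 500), the log2 ratio of FOXD2 over control was 1.48 with a standard error of 0.25 (Benjamini-Hochberg adjusted p = 1.46e-07). It kept an adjusted p under 0.05 under all 13 other settings tried, where it ranged between 1.12 and 1.56. In this fit the standard error and p of a gene draw on the spread over all genes tested, and not on its own lists alone.

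KMT2A spans 90.3 kb of the plus strand at chr11:118436492-118526832. Its H3K4me1 peaks numbered 12 and 15 in FOXD2 lists, against 9 and 8 in control lists. They covered 16.7 and 22.9 kb in FOXD2 lists, against 12.5 and 11.0 kb in control lists. The groups did not overlap, though FOXD2 replicate 1 lay closer to control replicate 1 than to FOXD2 replicate 2. The log2 ratio was 0.71 with a standard error of 0.23 (limma, adjusted p = 0.0127). This call was lost without FOXD2 replicate 1 (0.93, adjusted p = 0.183), without FOXD2 replicate 2 (0.49, adjusted p = 0.855) and without control replicate 2 (0.62, adjusted p = 0.0677). It was also lost for the gene span alone (0.82, adjusted p = 0.182) and for a window of 50 kb on each side (0.46, adjusted p = 0.143).

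These 2 of the 6 genes rose in H3K4me1 by the limma call and 0 fell, while 20.6% of all genes tested rose and 2.42% fell. The median log2 ratio was 0.07 over the 6 genes and 0.18 over all genes. With each list centred on its median, the log2 ratio was 1.20 at KMT2C and 0.43 at KMT2A, and both kept their call (limma, adjusted p = 2.26e-05 and 0.0317). Both FOXD2 lists exceeded both control lists in covered length at 2 of the 6 genes and at 43.7% of all genes tested, and fell below them at 0 of the 6 and at 11.0% of all. Among genes on chromosome 7, 23.8% rose, and on chromosome 11, 18.4%. On chromosomes 12, 16 and 19, which hold the others of the 6 genes, 21.6%, 8.97% and 4.37% rose. KMT2C has a long span, and 44.6% of the 634 genes with a span of at least 300 kb rose, against 19.6% of the shorter ones. The part of span length in the value at KMT2C was not tested.

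The remaining 4 genes did not pass. KMT2D, at chr12:49018978-49060794 on the minus strand, was covered by H3K4me1 over 14.3 and 14.1 kb in FOXD2 lists, against 15.2 and 11.2 kb in control lists. Its log2 ratio was 0.12 with a standard error of 0.24 (limma, adjusted p = 0.828). KMT2B, at chr19:35718003-35738878 on the plus strand, was covered over 14.9 and 13.3 kb in FOXD2 lists, against 16.5 and 12.1 kb in control lists. All 10 of its H3K4me1 regions were held by all 4 lists. SETD1A, at chr16:30957754-30984664 on the plus strand, was covered over 19.0 and 16.8 kb in FOXD2 lists, against 19.8 and 15.8 kb in control lists. SETD1B, at chr12:121790155-121832656, was covered over 35.1 and 34.0 kb in FOXD2 lists, against 39.3 and 32.4 kb in control lists. At each of these 4 genes both FOXD2 values lay between the 2 control values, so the control replicates differed more than the groups did. For KMT2B, SETD1A and SETD1B the log2 ratio lay between -0.05 and 0.01, with standard errors of 0.19 to 0.23 (limma, adjusted p between 0.93 and 0.998).

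**Figure D2:**
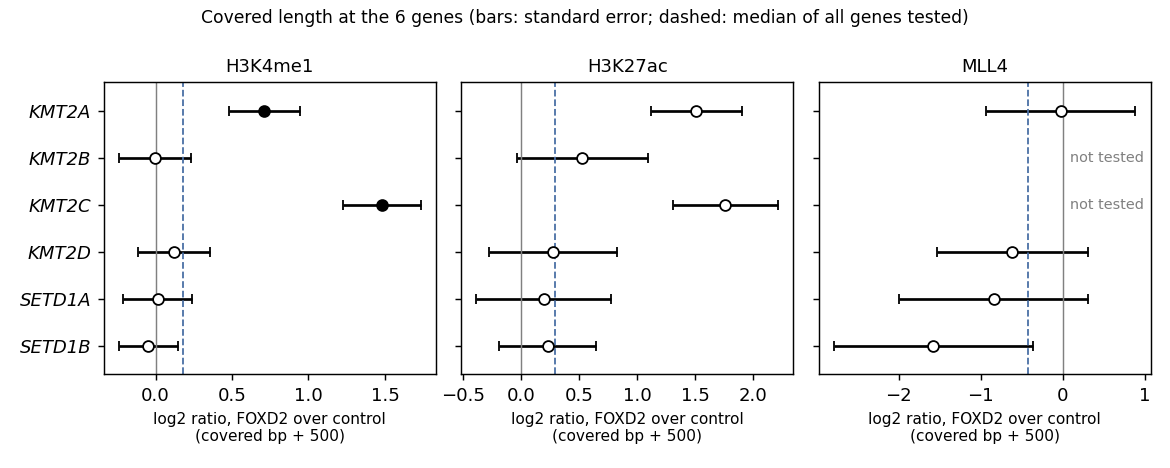
Log2 ratio of covered length, FOXD2 over control, in the limma fit for each mark, with the standard error as bars. Filled points have an adjusted p under 0.05, open points do not, and the dashed line is the median of all genes tested. In H3K4me1, KMT2C at 1.48 and KMT2A at 0.71 are filled, and the other genes lie within 1 standard error of 0.

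In number of H3K4me1 peaks, both FOXD2 lists held more peaks than both control lists at 3 of the 6 genes, against 31.1% of all genes tested. The third gene was KMT2B, with 11 peaks in each FOXD2 list and 10 in each control list. KMT2D went the other way, with 10 peaks in each FOXD2 list and 11 in each control list, as did 10.2% of all genes. The 10 merged regions of KMT2B were held by every list, so the 11 peaks of a FOXD2 list lay in the same 10 regions, and at both genes the covered lengths of the groups overlapped. Relative to window length, KMT2C stayed the least covered of the 6 genes in every H3K4me1 list, at 3.59 and 4.00% in FOXD2 lists and 1.23 and 1.29% in control lists. KMT2A followed with 12.8 and 17.6% in FOXD2 lists and 9.60 and 8.47% in control lists. SETD1B was the most covered, at 42.5 and 41.2% in FOXD2 lists and 47.6 and 39.3% in control lists. KMT2D, KMT2B and SETD1A lay between these, at 17.26 to 28.42% in FOXD2 lists and 13.75 to 29.65% in control lists. KMT2A overlapped KMT2D in FOXD2 lists, and KMT2B overlapped SETD1A in control lists, while KMT2C and SETD1B stood clear of their neighbours in both groups.

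At KMT2C, the H3K4me1 difference lay mostly inside the gene. Peaks within the span covered 10.9 and 12.4 kb in FOXD2 lists, against 3.88 and 3.44 kb in control lists. Merged over the 4 lists, the window held 26 H3K4me1 regions, of which 3 were held by all lists, 9 by both FOXD2 lists only and 1 by both control lists only. FOXD2-only and control-only regions were not counted over all genes in any mark. The H3K4me1 lists were longer in FOXD2 cells throughout, so these counts alone do not set KMT2C apart. The widest FOXD2-only region lay 71.07 kb inside the gene at chr7:152363278-152364929. Peaks covered 1343 and 1652 bp of it in FOXD2 lists, with deposited fold enrichments of 8.87 and 10.25, and none was listed in control cells. A group of 4 FOXD2-only regions lay 222.93 to 227.64 kb from the start. The only control-only region was at chr7:152140708-152141368, near the far end of the gene, with 661 and 365 bp in control lists. Parts of KMT2C have near-identical copies elsewhere in the genome, and how reads that match several places were treated is not stated in the labels used here, so positions within the gene are uncertain to that extent.

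**Figure D3:**
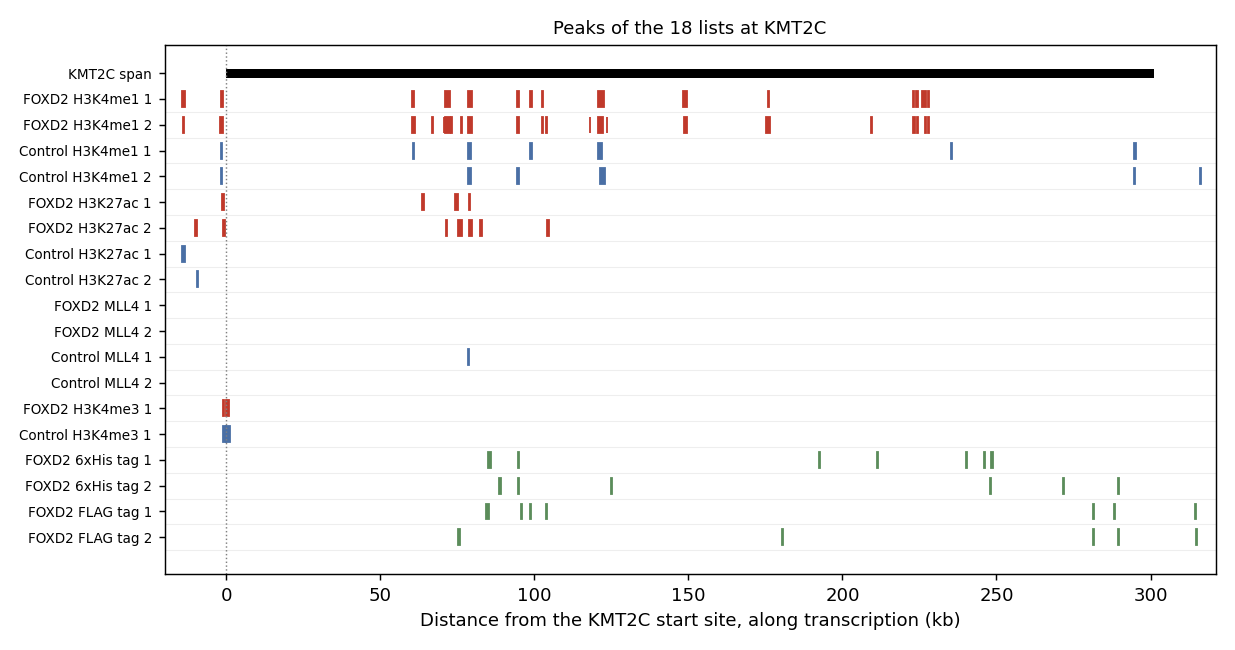
Peaks of the 18 lists along KMT2C, by distance from its start site in kb, with FOXD2 lists in red, control lists in blue, tag lists in green and the gene span in black. FOXD2 H3K4me1 peaks outnumber control ones along the gene, 15 and 22 against 7 and 6 in the window, and the 2 control H3K27ac lists have no peak inside it.

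H3K27ac at KMT2C followed the same order. It covered 2.94 and 4.71 kb of the window in FOXD2 lists, against 1.00 and 0.54 kb in control lists. Inside the span, peaks numbered 3 and 5 in FOXD2 lists and 0 in both control lists. Of 10 H3K27ac regions, 3 were FOXD2-only, with no count over all genes to set beside this. The widest, at chr7:152359571-152361691, lay 74.31 kb from the start and was covered over 1034 and 1211 bp in FOXD2 lists. A second, at chr7:152356305-152357358, overlapped an H3K4me1 region that all 4 lists held, with 587 and 1054 bp of H3K27ac in FOXD2 lists and none listed in control lists. The third lay 0.31 kb upstream of the start, at chr7:152436311-152437385, with 521 and 718 bp in FOXD2 lists.

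At KMT2A, the widest separation was in a region upstream of the gene, which was singled out after its values were seen. An H3K4me1 region held by all 4 lists lay 10.04 kb before the start, at chr11:118422140-118426451. H3K4me1 covered 3972 and 4312 bp of it in FOXD2 lists, against 2107 and 2260 bp in control lists. In the same place H3K27ac covered 3700 and 3437 bp in FOXD2 lists, against 329 and 0 bp in control lists. In covered length, replicates within a group were close in both marks there, and the groups were far apart. The deposited H3K4me1 fold enrichments overlapped, at 14.55 and 9.90 in FOXD2 lists and 7.28 and 10.80 in control lists. The only FOXD2-only MLL4 region of all 6 windows lay within it, at chr11:118423587-118424032, with 261 and 252 bp in FOXD2 lists and deposited fold enrichments of 3.45 and 4.73. Both were weak peaks, below the median fold enrichments of their lists, 4.79 and 5.87. A tag region at chr11:118424419-118425325 was held there by 2 of the 4 tag lists, 6xHis replicate 1 with 650 bp and FLAG replicate 1 with 907 bp. No annotated gene lay under these regions. Inside KMT2A, the widest and only FOXD2-only H3K4me1 region, at chr11:118445749-118446403, had 655 and 494 bp in FOXD2 lists.

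**Figure D4:**
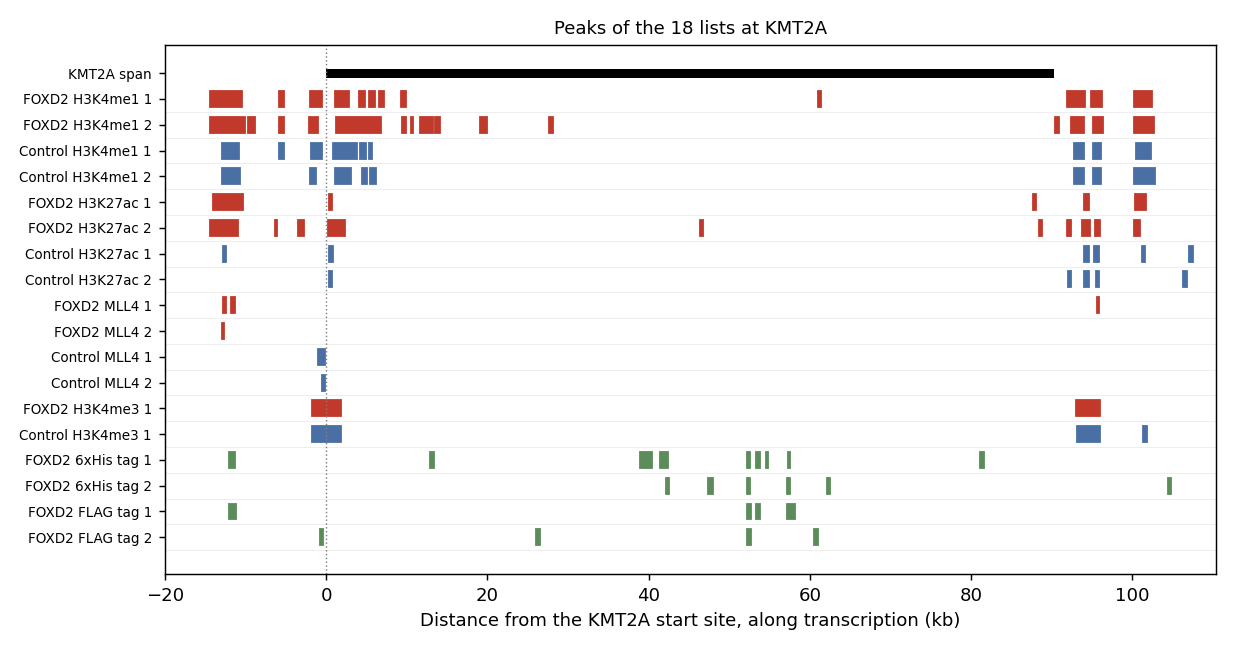
Peaks of the 18 lists along KMT2A, by distance from its start site in kb, with FOXD2 lists in red, control lists in blue, tag lists in green and the gene span in black. In the region 10.04 kb before the start, H3K27ac covers 3700 and 3437 bp in FOXD2 lists against 329 and 0 bp in control lists, and MLL4 peaks lie there only in FOXD2 lists.

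Over its whole window, H3K27ac at KMT2A covered 6.56 and 10.1 kb in FOXD2 lists, against 2.89 and 2.23 kb in control lists. In the limma fit for H3K27ac, 0 of 16560 genes had an adjusted p under 0.05 (0.0% higher and 0.0% lower), and 1036 had an unadjusted p under 0.05. The log2 ratio was 1.51 with a standard error of 0.39 at KMT2A and 1.76 with a standard error of 0.45 at KMT2C (limma, adjusted p = 0.685 for each), so neither passed. The median was 0.40 over the 6 genes and 0.29 over all genes, and with centred lists KMT2A had 1.16 and KMT2C 1.40. Both FOXD2 lists exceeded both control lists at these 2 of the 6 genes and at 29.6% of all genes tested. At 0 of the 6 genes and at 3.76% of all genes were both FOXD2 lists below both control lists. In number of peaks only KMT2C separated upwards, with 4 and 7 in FOXD2 lists against 2 and 1 in control lists, as 12.3% of all genes did, and 0 of the 6 genes separated downwards, against 6.16% of all. An exact permutation test of 2 lists against 2 cannot give a two-sided p under 0.333, which is the value for each separated gene.

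The other 4 genes overlapped between the groups in H3K27ac. KMT2D was covered over 7.51 and 17.7 kb in FOXD2 lists, against 11.7 and 7.62 kb in control lists. KMT2B was covered over 14.3 and 30.3 kb in FOXD2 lists, against 18.8 and 10.9 kb in control lists. For SETD1A the values were 17.4 and 34.9 kb in FOXD2 lists, against 30.6 and 15.1 kb in control lists. In SETD1B they were 35.7 and 53.9 kb in FOXD2 lists, against 42.6 and 32.9 kb in control lists. In each, FOXD2 replicate 2 was the highest and control replicate 1 the next, the same libraries that had the longest lists. Their log2 ratios lay between 0.19 and 0.53, with standard errors of 0.42 to 0.58 (limma, adjusted p between 0.971 and 0.979). The widest H3K27ac region of the 6 windows was at SETD1B. It ran for 37645 bp at chr12:121773205-121810849, across TMEM120B, RHOF and the lower-coordinate part of SETD1B, and covered 31587 and 36698 bp in FOXD2 lists, against 31564 and 29373 bp in control lists.

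MLL4 peaks numbered 0 to 3 in any list at KMT2A, KMT2B, KMT2C and KMT2D, and 1 to 9 at SETD1A and SETD1B. KMT2D, which encodes the protein, had 3 and 0 MLL4 peaks in FOXD2 lists, against 2 in each control list. A region over the KMT2D start, at chr12:49060658-49061219, was held by FOXD2 replicate 1 with 366 bp and by control replicate 2 with 374 bp. Only the control peak reached the start, and the FOXD2 peak lay upstream of it. SETD1A was the only one of the 5 genes with a placed start where all 4 lists had a peak over it. That region, at chr16:30957120-30958014, was covered over 782 and 563 bp in FOXD2 lists, against 894 and 883 bp in control lists. Just before the KMT2A start, by 0.09 kb, the pattern was opposite to that of the region further upstream. A control-only MLL4 region lay there, at chr11:118435541-118436401, with 822 and 447 bp in control lists and none listed in FOXD2 cells. KMT2C had no MLL4 peak in either FOXD2 list, against 1 and 0 in control lists, and KMT2B had 1 and 0 in FOXD2 lists, against 1 and 0 in control lists.

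SETD1B was the gene where MLL4 separated the groups. Its window held 6 and 1 peaks in FOXD2 lists, against 8 and 9 in control lists. They covered 3.44 and 0.45 kb in FOXD2 lists, against 5.36 and 5.16 kb in control lists. Both FOXD2 lists lay below both control lists, and the lowest value came from the short list of FOXD2 replicate 2. Separation in this direction in covered length held at 1 of the 6 genes and at 21.2% of all 6685 genes tested, and in number of peaks at 1 of the 6 and at 11.2% of all. Separation upwards held at 0 of the 6 genes in either measure, against 1.91% of all genes in covered length and 0.823% in number of peaks. The log2 ratio of SETD1B was -1.58 with a standard error of 1.21 (limma, adjusted p = 1). With the short list left out it was -0.55 (adjusted p = 0.483), and with that list as the only FOXD2 library it was -2.60 (adjusted p = 0.00119). With that single list the spread within a group came from the control lists, the lone FOXD2 list was assumed to vary as they do, and 2527 genes were called. In the MLL4 fit 0 genes passed in either direction (0.0% of those tested), 26 had an unadjusted p under 0.05, and KMT2B and KMT2C had too little MLL4 to be tested. KMT2A, KMT2D and SETD1A had log2 ratios of -0.03, -0.62 and -0.84, with standard errors of 0.91 to 1.15 (limma, adjusted p = 1 for each). The median was -0.73 over these 4 tested genes and -0.43 over all genes tested.

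**Figure D5:**
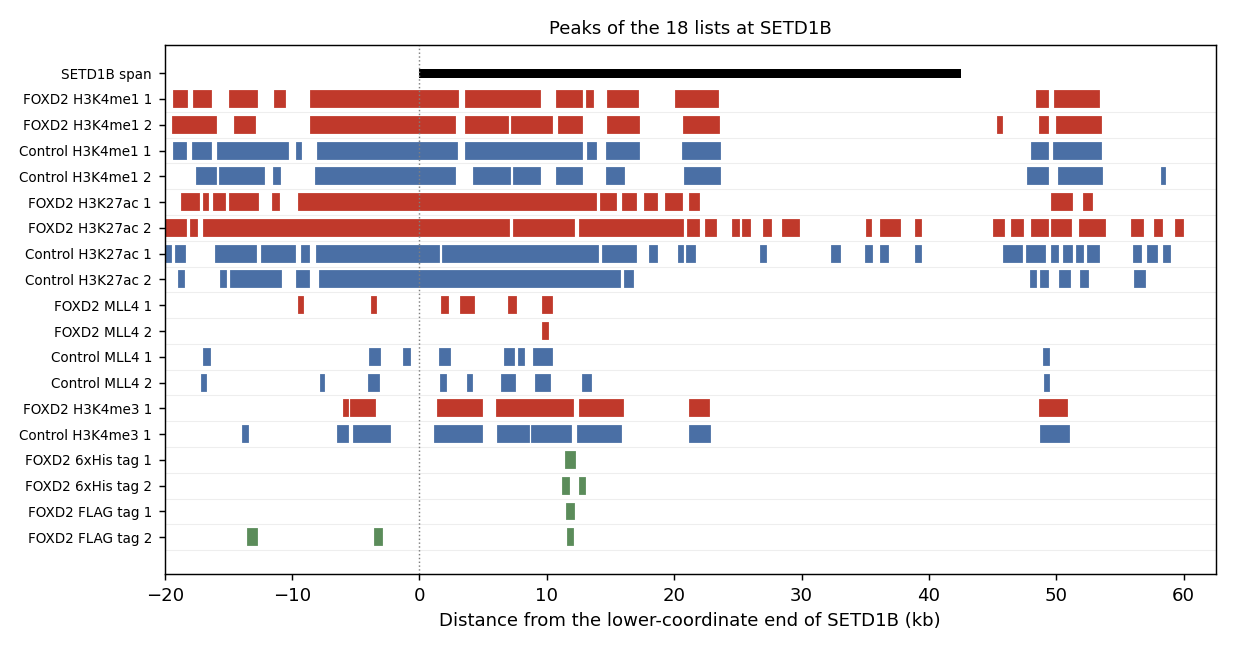
Peaks of the 18 lists along SETD1B, by distance in kb from its lower-coordinate end, with FOXD2 lists in red, control lists in blue, tag lists in green and the gene span in black. MLL4 peaks number 6 and 1 in FOXD2 lists against 8 and 9 in control lists. They lie in or at the edge of the broad H3K27ac domain, except for a control-only region at HPD outside it. All 4 tag lists share a site inside the gene.

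Of the 12 MLL4 regions in the SETD1B window, 1 was held by all 4 lists, at chr12:121799152-121800581. MLL4 covered 746 and 446 bp of it in FOXD2 lists, against 1394 and 1120 bp in control lists, and the deposited fold enrichments were 5.87 and 5.34 in FOXD2 lists and 8.81 and 14.23 in control lists. The wider of 2 control-only regions, at chr12:121773084-121773679, lay over TMEM120B and had 415 and 333 bp in control lists. The other, at chr12:121839215-121839594, lay at HPD and had 370 and 296 bp. The SETD1A window also held 2 control-only MLL4 regions, the wider at chr16:30948379-30949468 over FBXL19 and ORAI3, with 666 and 1090 bp in control lists.

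H3K4me3 had 1 list per group, so no test was possible and a change was named from a ratio of 1.5 upwards or its inverse. KMT2C was the only one of the 6 genes past this, and 2.96% of 15058 genes lay as far below and 0.571% as far above. Its window was covered over 1.19 kb in the FOXD2 list and 1.82 kb in the control list, a ratio of 0.65. Most of that difference came from 1 peak upstream of the start, at chr7:152436256-152437040, with 253 bp in the FOXD2 list and 785 bp in the control list. The peak over the start itself, at chr7:152434972-152436013, was alike, with 940 bp in the FOXD2 list and 1040 bp in the control list. With the gene span alone the ratio was 0.90, and with 50 kb on each side 0.84, both within 1.5-fold.

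The other 5 genes had ratios between 0.91 and 1.07. Over the KMT2A start, H3K4me3 covered 3642 bp in the FOXD2 list and 3566 bp in the control list. Over the KMT2D start it covered 4121 bp in the FOXD2 list and 3692 bp in the control list. The peak over the KMT2B start had 4042 bp in the FOXD2 list and 4037 bp in the control list, and that over SETD1A had 2780 bp in the FOXD2 list and 2636 bp in the control list. SETD1B carried 14.3 kb of H3K4me3 inside its span in the FOXD2 list and 14.1 kb in the control list, the most of the 6 genes. RHOF and the non-coding gene LINC01089 overlap that span, and part of this H3K4me3 lay over them.

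The gap between the 2 H3K4me3 peaks of KMT2C falls on the bases just before its start, so the 250 bases upstream of the start are shown for KMT2C, and for KMT2A and KMT2D, whose promoters H3K4me3 covers without a gap. The sequences are from RefSeq (GRCh38), 5′ to 3′ on the strand of the gene, and lie at chr7:152436004-152436253 for KMT2C on the minus strand, chr11:118436242-118436491 for KMT2A on the plus strand and chr12:49060795-49061044 for KMT2D on the minus strand. Capitals mark the GC box GGGCGG on either strand, a motif of Sp family factors.
KMT2C: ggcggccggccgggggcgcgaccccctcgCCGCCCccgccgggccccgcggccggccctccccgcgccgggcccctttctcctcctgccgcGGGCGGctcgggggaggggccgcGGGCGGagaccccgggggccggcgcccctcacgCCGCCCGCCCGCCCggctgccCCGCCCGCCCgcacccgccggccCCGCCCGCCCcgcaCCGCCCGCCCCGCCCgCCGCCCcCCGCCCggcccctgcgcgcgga
KMT2A: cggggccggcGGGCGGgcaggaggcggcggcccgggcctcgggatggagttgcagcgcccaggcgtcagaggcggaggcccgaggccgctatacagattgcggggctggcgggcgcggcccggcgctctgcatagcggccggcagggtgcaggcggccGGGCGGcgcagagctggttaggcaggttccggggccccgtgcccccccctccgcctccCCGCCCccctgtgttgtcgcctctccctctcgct
KMT2D: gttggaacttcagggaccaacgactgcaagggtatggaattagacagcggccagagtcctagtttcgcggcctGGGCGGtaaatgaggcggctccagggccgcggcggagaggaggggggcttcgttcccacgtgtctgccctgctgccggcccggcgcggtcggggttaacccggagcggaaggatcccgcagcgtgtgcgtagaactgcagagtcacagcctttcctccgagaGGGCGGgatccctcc
In the 300 bases from 250 before to 50 after the start, H3K4me3 covered 60 bases at KMT2C in the FOXD2 list and 58 in the control list, and all 300 bases at KMT2A, KMT2B, KMT2D and SETD1A in both lists.

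RefSeq promoters of 300 bases were at hand for 5 of the 6 genes, all but SETD1B, and for 15812 protein-coding genes in all. The KMT2C promoter held 56 CpG dinucleotides, more than or as many as 99.8% of all promoters, and its GC content was 88.7%. KMT2B held 48 CpG, KMT2A 36, SETD1A 30 and KMT2D 27, against a median of 22 over all promoters. The GC box was present in all 5, with matches that overlap each other counted separately, from 15 at KMT2C to 2 at KMT2D, and in 58.5% of all promoters. The forkhead core TGTTTAC was in none of the 5 on either strand and in 2.62% of all promoters, and CCAAT was in none of the 5 and in 36.3% of all. Tag peaks touched only 1 of these 5 promoters, KMT2D, in FLAG replicate 2 over 54 bases. That list overlapped 16.2% of all promoters, against 3.93 to 6.49% for the other tag lists.

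Sites of tagged FOXD2 were taken as regions with a peak in all 4 tag lists, and no untagged library had a peak list. KMT2A and SETD1B each held 1 such site in their window, 2 of the 6 genes, against 20.6% of all genes. The KMT2A site lay 52.15 kb inside the gene at chr11:118488645-118489160, with 366 and 363 bp in the 6xHis lists and 516 and 477 bp in the FLAG lists. None of the histone marks or MLL4 had a peak over it in any list. The SETD1B site lay at chr12:121801432-121802399, with 731 and 470 bp in the 6xHis lists and 569 and 425 bp in the FLAG lists. It lay over H3K4me1, H3K27ac and H3K4me3 regions that all of their lists held, and within LINC01089. With peaks of −log10 q of at least 5, only the KMT2A site remained. KMT2C had 5 to 7 tag peaks in each tag list, at 19 regions of which none was shared by more than 2 lists, and none of its 9 FOXD2-only H3K4me1 regions overlapped any of them. Of its 3 FOXD2-only H3K27ac regions, 1 did, the widest one described above, where FLAG replicate 2 alone had a peak of 500 bp. KMT2D had a region held by 3 of the 4 tag lists over PRKAG1, at chr12:49014349-49015193. SETD1A had 1 tag peak in 1 list and KMT2B had none in any list.

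The windows also hold the promoters of other genes, from 1 other protein-coding gene at KMT2C to 7 at KMT2B. At KMT2B, H3K4me1 inside the gene's own span covered 1.26 and 0.99 kb in FOXD2 lists, against 1.51 and 0.79 kb in control lists, and the flanks held the rest. At SETD1A the span held 1.40 and 1.38 kb in FOXD2 lists, against 1.80 and 1.12 kb in control lists. KMT2A had 4.80 and 9.97 kb in its span in FOXD2 lists, against 4.22 and 3.25 kb in control lists, and 11.9 and 12.9 kb in its flanks in FOXD2 lists, against 8.29 and 7.79 kb in control lists. Thus at KMT2A the flanks separated the groups more cleanly than the span.

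Across the 16 lists of H3K4me1, H3K27ac, MLL4 and the tags, with each mark centred on its own mean, SETD1A and SETD1B varied most alike of the 15 pairs of the 6 genes (Pearson r = 0.90 of log2 covered length), and KMT2A and KMT2C came next (0.84). KMT2C and SETD1B were least alike (0.14). Among 17235 genes outside its window, those most like KMT2C were DENND5A (0.96) and SASH1 (0.95). Those most like KMT2A were HEBP2 (0.95) and UCK2 (0.94), and those most like KMT2D were TRPM4 (0.97) and GTPBP2 (0.97). For KMT2B they were ZNF428 and SRRM5 (0.98 each), for SETD1A MICALL2 (0.99) and SLC38A3 (0.97), and for SETD1B KIAA2013 and PPP4C (0.97 each). All these values share the same 16 lists and their lengths.

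Other H3K4 proteins were counted in the same fit. Of 17 subunits of the methyltransferase complexes, 1 rose in H3K4me1, 0 fell and 16 did not pass, against 20.6% of all genes that rose and 2.42% that fell, with a median log2 ratio of 0.17 against 0.18 for all genes. Both FOXD2 lists exceeded both control lists in covered length at 6 of the 17 subunits and at 43.7% of all genes tested. The one that rose was KDM6A, the demethylase partner of KMT2C and KMT2D, covered over 33.3 and 45.6 kb in FOXD2 lists, against 16.1 and 14.3 kb in control lists (limma, adjusted p = 1.13e-08). NCOA6, a nuclear receptor coactivator found in the KMT2C and KMT2D complexes, had a log2 ratio of 0.54 (limma, adjusted p = 0.0585). PAXIP1, of the same complexes, had 0.60 (limma, adjusted p = 0.0738), and WDR82, of the SETD1 complexes, had 0.39 (limma, adjusted p = 0.201).

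Of 13 other enzymes assigned to H3K4 methylation or its removal, 11 were tested, since KDM5D lies on Y and PRDM9 had too little H3K4me1. Of the 11, 10 rose, 0 fell and SMYD2 did not pass, against 20.6% of all genes that rose and 2.42% that fell. Their median log2 ratio was 0.89, against 0.18 for all genes, and 1 of the 11 had a span of at least 300 kb, a class of which 44.6% rose. SMYD3, a methyltransferase of the SMYD family, was covered by H3K4me1 over 56.1 and 63.3 kb in FOXD2 lists, against 31.8 and 28.6 kb in control lists (limma, adjusted p = 2.31e-06). KMT2E, a family member without known H3K4 methyltransferase activity, had 26.7 and 32.8 kb in FOXD2 lists, against 14.7 and 11.8 kb in control lists (limma, adjusted p = 4.74e-06). The demethylases KDM1B and KDM1A had log2 ratios of 1.21 and 0.89 (limma, adjusted p = 1.74e-05 and 0.00094). In H3K27ac and MLL4, 0 genes of either list passed, as was the case for all genes tested.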

How the data were processed

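The authors deposited 1 list of peaks per library, and all members and gene lists were chosen with earlier results of these data known. Per the submitters' processing notes, the authors worked on hg38 with MACS2 2.2.7.1, Bowtie2 2.3.4.1, cutadapt 3.4, bedtools and Picard. Per the labels' protocols, histone marks came from native chromatin cut with MNase, and MLL4 and tags from formaldehyde-crosslinked, sonicated chromatin. Each deposited peak has a fold enrichment (a ratio) and −log10 p and q values, and −log10 q is at least 2 in all 18 lists. Some deposited peak names carry another replicate number than the labels, which were followed here.

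Within a list, peaks on the autosomes and X were merged. The bp of each gene window (RefSeq span extended by 20 kb, GRCh38.p14) under peaks was the measure. Genes averaging at least 500 bp over a mark's 4 lists entered a limma 3.58.1 fit (R 4.3.3, trend) of log2(bp + 500), FOXD2 against control, 2 lists each, adjusted by Benjamini-Hochberg over all genes, and the fit was tested on simulated data. A ratio on this scale understates changes at low coverage. The simulated lists had independent noise of equal spread and no list-wide difference in length. They therefore cannot show how the fit behaves where list lengths differ. Regions are lists merged at an overlap of 1 bp, and distances are from the nearer edge. Named were the 6 genes, the widest FOXD2-only and control-only region per gene and mark, tag regions of all 4 lists, the H3K4me3 peak at each start, the 2 genes most alike by correlation, and up to 4 list genes by lowest p. Scripts ran under pandas 2.3.3, numpy 2.4.6, matplotlib 3.10.9 and Python 3.11.15. Other settings were the span alone, 50 kb, −log10 q of at least 5, equal list length, median centring, pseudocounts of 100 and 2000 bp, no filter, each library left out and a replicate block. The labels do not call replicates separate cultures, so the tests reflect a library spread that may be technical. Same-numbered replicates were not shown to be paired.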

Additional observations from a re-analysis of the deposited data

How the results depend on the processing

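Depth is unknown, each mark has 2 lists per group, and windows hold neighbouring promoters, so the limits are list length and replicate number. KMT2C in H3K4me1 kept its call under all 13 alternatives. KMT2A kept its direction in all 13 and lost its call in 5. In H3K27ac both kept their direction and stayed without a call in these 13 settings. With −log10 q of at least 5, the H3K27ac groups overlapped at KMT2C (1.40 with a standard error of 1.09).

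The 3961 genes called in H3K4me1 became 2628 with the gene span alone and 6014 after median centring (2934 higher and 3080 lower, against 3544 and 417), under which SETD1B fell (-0.33, limma adjusted p = 0.0338). Leaving out 1 library gave 755 to 6019 calls in H3K4me1, 0 to 41 in H3K27ac and 0 to 2527 in MLL4, the last without FOXD2 replicate 1. Separated groups were then found at 2 to 6 of the 6 genes in H3K4me1 and in H3K27ac, and at 1 to 4 in MLL4. Here 1 list is set against 2, and most genes tested separated where these counts were highest. Without control replicate 1, H3K4me1 separated upwards at all 6 genes, at 13084 of 17214 genes tested, and downwards at 1953. Without control replicate 2, KMT2A and KMT2C separated upwards, and KMT2B, KMT2D, SETD1A and SETD1B downwards. In that setting 7683 of 17274 genes tested separated upwards and 7052 downwards. Without FOXD2 replicate 1, H3K27ac separated upwards at 12585 of 16606 genes and downwards at 1334. In MLL4 that setting separated 5067 of 5596 genes downwards and 105 upwards. With −log10 q of at least 5, H3K27ac separated upwards at 1 of the 6 genes, KMT2A, and at 5209 of 15912 genes tested. Tag sites then lay at 1 of the 6 genes, against 9.1% of all genes. Tag sites lay at 2 to 3 of the 6 genes when 1 tag list was left out. The share of all genes with a site was also higher in each of these settings. The count of 3 came without 6xHis replicate 2, where 27.6% of all genes held a site, against 20.6% with all 4 tag lists. For H3K4me3, 0 genes passed 1.5-fold with the gene span alone or 50 kb.

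No same-numbered pairing was established, as the deviations of same-numbered lists correlated at 0.1 in H3K4me1, -0.6 in H3K27ac and 0.21 in MLL4. The replicate block gave 3395 calls in H3K4me1, 17 in H3K27ac and 0 in MLL4. Crossing the H3K27ac numbers in the block, chosen after seeing the data, gave 3271 calls. Of 16560 genes tested, 3038 were called higher in FOXD2 and 233 lower. The higher ones held 3 of the 6 genes, KMT2A, KMT2B and KMT2C, though the groups overlapped at KMT2B. The crossing followed the deviations of these same lists, so no conclusion was drawn from these calls.

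Values of genes without a call changed sign as follows. With the gene span alone, H3K4me1 log2 ratios were 0.01 at KMT2B, -0.11 at KMT2D, -0.03 at SETD1A and 0.08 at SETD1B. With 50 kb they were 0.07, -0.07, -0.09 and 0.06 in the same order, while H3K27ac was -0.07 at KMT2D and MLL4 0.12 at KMT2A. SETD1A in H3K4me1 was -0.03 with stricter q and -0.07 at equal list length. Median centring gave -0.16 at KMT2D and -0.27 at SETD1A in H3K4me1, -0.08, -0.16 and -0.13 at KMT2D, SETD1A and SETD1B in H3K27ac, and 0.67 and 0.09 at KMT2A and KMT2D in MLL4. KMT2A in MLL4 was 0.01 with a pseudocount of 2000 bp. With 1 library left out, H3K4me1 ranged from -0.22 to 0.21 at KMT2B, -0.09 to 0.33 at KMT2D, -0.15 to 0.17 at SETD1A and -0.18 to 0.09 at SETD1B. H3K27ac ranged from -0.01 to 1.05 at KMT2B, -0.32 to 0.87 at KMT2D, -0.31 to 0.69 at SETD1A and -0.07 to 0.52 at SETD1B. MLL4 ranged from -0.57 to 0.52 at KMT2A, -1.46 to 0.23 at KMT2D and -1.82 to 0.14 at SETD1A. The causes of these changes were not tested.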
